A study of Homo sapiens with 4 samples.

Results

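SNARE proteins and synaptotagmins, the proteins that fuse vesicles with their target membranes, were followed in the established human cell line MRC5, fibroblasts of fetal lung. All gene symbols of the VAMP, STX (syntaxin), SYT and SYTL families and SNAP23, SNAP25, SNAP29 and SNAP47 were taken, which gave 49 of the 26255 genes in the deposited tables. RNA sequencing of messenger RNA gave 4 libraries of wild-type cells, titled 48 h: 2 with the treatment label "no" (control) and 2 with the treatment label "miRs", short for microRNAs. The labels do not name the microRNAs, and the series title speaks of a negative-control microRNA where the treatment label of the control cells says "no", so what the control cells received is not known. Nothing in the labels says that the libraries of a group came from separate cultures, so the p-values below rest on a spread between libraries that may be technical only. Values are FPKM, which counts fragments relative to transcript length and library size, and the number of reads is unknown. Where a pair of values is given for a group, replicate 1 comes first and replicate 2 follows. Fewer cells holding a transcript and less of it per cell cannot be told apart in such bulk samples.

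Fusion is driven by a four-part bundle of helices. A vesicle SNARE of the VAMP type meets a syntaxin and SNAP-25-type helices on the target membrane, and zippering of the bundle pulls the membranes together. Sec1/Munc18 (SM) proteins clasp syntaxins and guide assembly, the ATPase NSF with its SNAP adaptors takes spent bundles apart, and synaptotagmins, with their C2 domains, tie several fusion steps to calcium or to membrane lipids. Fibroblasts use this machinery for secretion of matrix proteins, recycling of integrins and receptors, and delivery to lysosomes.

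The cells carried fibroblast transcripts in all libraries: the collagen COL1A1 was at 1910 to 4742 FPKM and the filament protein VIM at 2249 to 3697 FPKM. Between 11622 and 11781 genes per library reached 1 FPKM. The miRs libraries differed more from each other than the controls did: on the log2(FPKM + 1) scale they were over 2-fold apart in 725 of 11860 tested genes, and the controls in 71. Their interferon response also differed in size. The 18 interferon genes listed had a median log2 difference from the control mean of 6.69 and 4.25 in these libraries, and the part of this in the results below was not tested.

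Of the 49 genes, 31 averaged 1 FPKM or more across the libraries and were tested with limma on log2(FPKM + 1), with Benjamini-Hochberg adjustment over all 11860 tested genes. VAMP8, a vesicle SNARE of late endosomes and secretory granules, rose, and SYT11, a synaptotagmin that does not bind calcium, fell. These 2 members passed an adjusted p of 0.05, as did 0.245% of all tested genes (0.101% higher and 0.143% lower in miRs). Both were known as called genes when the family was chosen, so their number is a description. The other 29 did not pass, and 16 of the 31 lay within 0.3 of no difference on the log2 scale. In 12 members both miRs libraries lay below both controls (38.7%, against 30.0% of all tested genes), and in 6 they lay above (19.4%, against 29.5%). The median log2 difference, miRs minus control, was −0.14 over the 31 members and −0.002 over all tested genes. Differences over 1 in size were seen in 7 members (22.6%) and in 6.47% of all tested genes. VAMP8 and SYT11 are among these 7, so this share is a description too. The number of members that passed changed with each library left out, as did the number over all tested genes. The lone library of a group was then assumed to vary like the other group, so those counts are no result about the members.

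**Figure D1:**
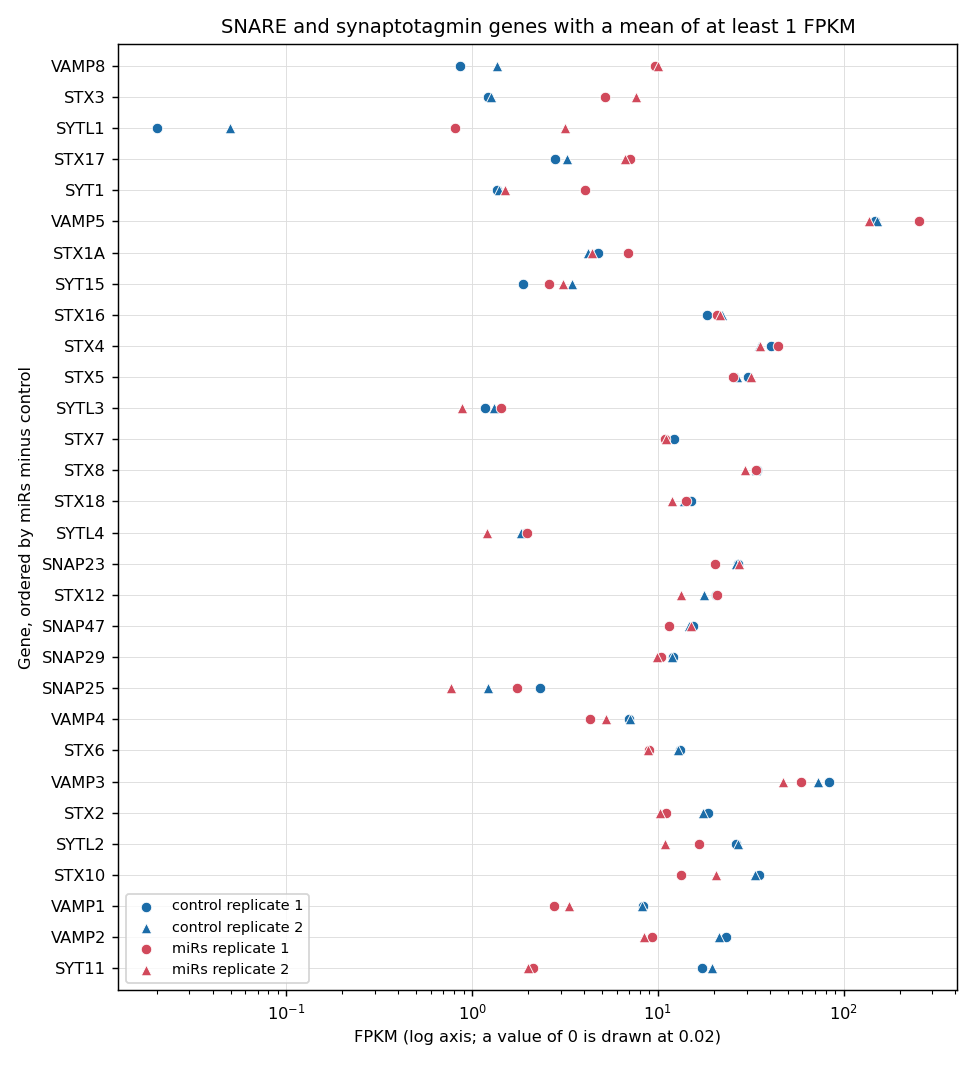
FPKM (log axis) of 30 of the 31 tested SNARE and synaptotagmin genes in each of the 4 libraries, ordered by the difference between miRs and control; each point is 1 library. VAMP8, STX3, SYTL1 and STX17 at the top have both miRs points to the right of both control points, SYT11 at the bottom has them far to the left (2.01 and 2.14 against 17.2 and 19.6 FPKM), and most genes between show points close together.

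SYT11 read 17.2 and 19.6 FPKM in the controls and 2.14 and 2.01 FPKM with miRs. The groups lay far apart and the libraries within each were close, so that SYT11 in miRs was at 11.3% of its control mean. Its log2 difference of −2.66 ± 0.14 (SE) had an adjusted p of 0.0310 in limma, and it ranked 16th among the falls of all tested genes. SYT11 was the most abundant synaptotagmin of the control cells and stood below SYT15 in both miRs libraries. In limma the adjusted p was 0.286 without control replicate 1, 0.272 without control replicate 2 and 0.114 with no minimum FPKM.

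VAMP8 read 0.858 and 1.35 FPKM in the controls and 9.65 and 9.98 FPKM with miRs. It went from barely detected to a level above that of VAMP2 in both miRs libraries, an 8.88-fold higher mean. The log2 difference was 2.37 ± 0.18 (SE) and the adjusted p in limma was 0.0430. It ranked 75th among the rises of all tested genes. The call for VAMP8 was lost in limma without control replicate 1 (adjusted p = 0.405) or control replicate 2 (0.272), with no minimum FPKM (0.118), with a minimum mean of 5 FPKM (0.0580) and with quantile normalization (0.0525).

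MicroRNAs lower messenger RNAs that carry, mostly in the 3′ untranslated region, a match to bases 2 to 8 of the microRNA, its seed. Since the labels name none, the members were read against 3 seed families known from reprogramming of human cells with microRNAs, picked with earlier results of these data known. The mature sequences, from RefSeq with build GRCh38.p14, are shown because their seeds, in capitals, define the letters searched. The first comes from chr12:6963742-6963764 (plus strand), the next from chr4:112648186-112648208 (minus strand) and the last from chr14:101065641-101065661 (plus strand).
hsa-miR-200c-3p: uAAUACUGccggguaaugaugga
hsa-miR-302a-3p: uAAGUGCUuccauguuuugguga
hsa-miR-369-3p: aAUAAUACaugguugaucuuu
hsa-miR-200b-3p shares the seed of the first, and hsa-miR-302d-3p and hsa-miR-372-3p share that of the next.

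The 7 letters that match the seed of miR-200b and miR-200c are CAGTATT. Those for the miR-302 and miR-372 family are AGCACTT. Those for miR-369-3p are GTATTAT, which can overlap the first of these motifs. All were searched on the transcript strand only. In the longest annotated 3′ untranslated region of each gene (GENCODE 29, GRCh38), CAGTATT stood in 10 of the 31 tested members (32.3%, against 19.5% of the 10802 tested genes with such a region). AGCACTT stood in 7 (22.6%, against 25.4%) and GTATTAT in 4 (12.9%, against 15.1%). The regions with a match were longer than those without: for CAGTATT the median was 3060 bases in members with a match against 1089 in members without one. The members with CAGTATT had a median log2 difference of −0.002 and those without it −0.18, and over all tested genes the medians were −0.01 with it and 0.01 without it. With AGCACTT the median was −0.19 in members that hold it and −0.12 in those that do not, and −0.05 against 0.02 over all tested genes.

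The members below both controls include VAMP3 and VAMP4, which hold CAGTATT once, STX10 holds AGCACTT, and STX17, which lay above both controls, holds CAGTATT near the start of its region. These stretches are examples from members whose groups did not overlap, with the match in capitals, and they are not all the matches. VAMP4 also holds AGCACTT, as do SNAP29 and STX7, which lay below both controls, and STX3, which lay above. In STX7 the groups barely parted: the lower control read 11.026 FPKM and the higher miRs library 11.021 FPKM (log2 difference −0.07). STX7 holds CAGTATT too, as does SYT1, which lay above, so members with a match stood on both sides.
VAMP3: ccccttctgattCAGTATTttgcatggggg
VAMP4: aatagaaattatCAGTATTtaaatagggaa
STX10: ggggagccaccaAGCACTTtggagctggcc
STX17: aaaccaaatttCAGTATTattggtgccaac
On GRCh38 they lie at chr1:7780499-7780528 (plus strand) for VAMP3 and chr1:171703099-171703128 (minus) for VAMP4. The STX10 stretch lies at chr19:13144344-13144373 (minus) and that of STX17 at chr9:99968674-99968703 (plus). In STX17 the match runs on into GTATTAT, so both motifs stand there. None of the 3 motifs was found in the regions of VAMP1, VAMP2, STX2, STX6, SYTL2 or VAMP8. A match describes letters and does not show that a microRNA binds there, and the longest annotated region need not be the one these cells use.

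The VAMPs are the vesicle-side SNAREs. VAMP2, or synaptobrevin 2, which serves regulated exocytosis in many cells, read 23.2 and 21.3 FPKM in the controls and 9.26 and 8.46 FPKM with miRs. Its close relative VAMP1 read 8.29 and 8.16 FPKM in the controls and 2.76 and 3.33 FPKM with miRs. Both lay at under 40% of their control means in miRs (39.8% for VAMP2 and 37.0% for VAMP1), with groups well apart. The log2 difference of VAMP2 was −1.24 ± 0.13 (SE, adjusted p = 0.0632 in limma) and that of VAMP1 was −1.19 ± 0.15 (adjusted p = 0.0635), so neither passed.

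VAMP3, or cellubrevin, the SNARE of recycling endosomes, read 83.3 and 72.3 FPKM in the controls and 59.2 and 46.95 FPKM with miRs. The groups did not overlap, but the libraries of each pair were over 10 FPKM apart and the adjusted p was 0.1595 in limma (log2 difference −0.55). VAMP4, of the trans-Golgi network, was at 6.98 and 7.09 against 4.31 and 5.28 FPKM (−0.48, adjusted p = 0.162). VAMP5, first described in muscle, was the most abundant of the tested VAMPs, at 148 and 152 FPKM in the controls and 256 and 137 FPKM with miRs. Its miRs libraries lay on either side of the controls, miRs replicate 1 being the high one. VAMP5 and VAMP8 are neighbouring genes on chromosome 2 in RefSeq. The interferon genes above were further from control in miRs replicate 1 than in miRs replicate 2, and a link to VAMP5 was not tested. Without miRs replicate 1 the log2 difference of VAMP5 was −0.13, where it was 0.32 with all 4. The summed FPKM of the tested VAMPs, without VAMP7, described below, held 0.317% and 0.516% VAMP8 in control replicates 1 and 2. In miRs replicates 1 and 2 it held 2.83% and 4.74% VAMP8. For VAMP2 these shares were 8.57% and 8.12% in control and 2.72% and 4.02% in miRs.

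VAMP7, the SNARE of lysosome fusion, was listed at 0 in all 4 libraries. It lies in a pseudoautosomal region, whose sequence is the same on the X and Y chromosomes. The 16 other genes of these regions looked up, chosen after the zero was seen, were likewise listed at 0 in all 4 libraries, among them SLC25A6, a mitochondrial ADP/ATP carrier, and CD99, a surface protein of most cells. The listed 0 therefore gives no level for VAMP7.

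**Figure D2:**
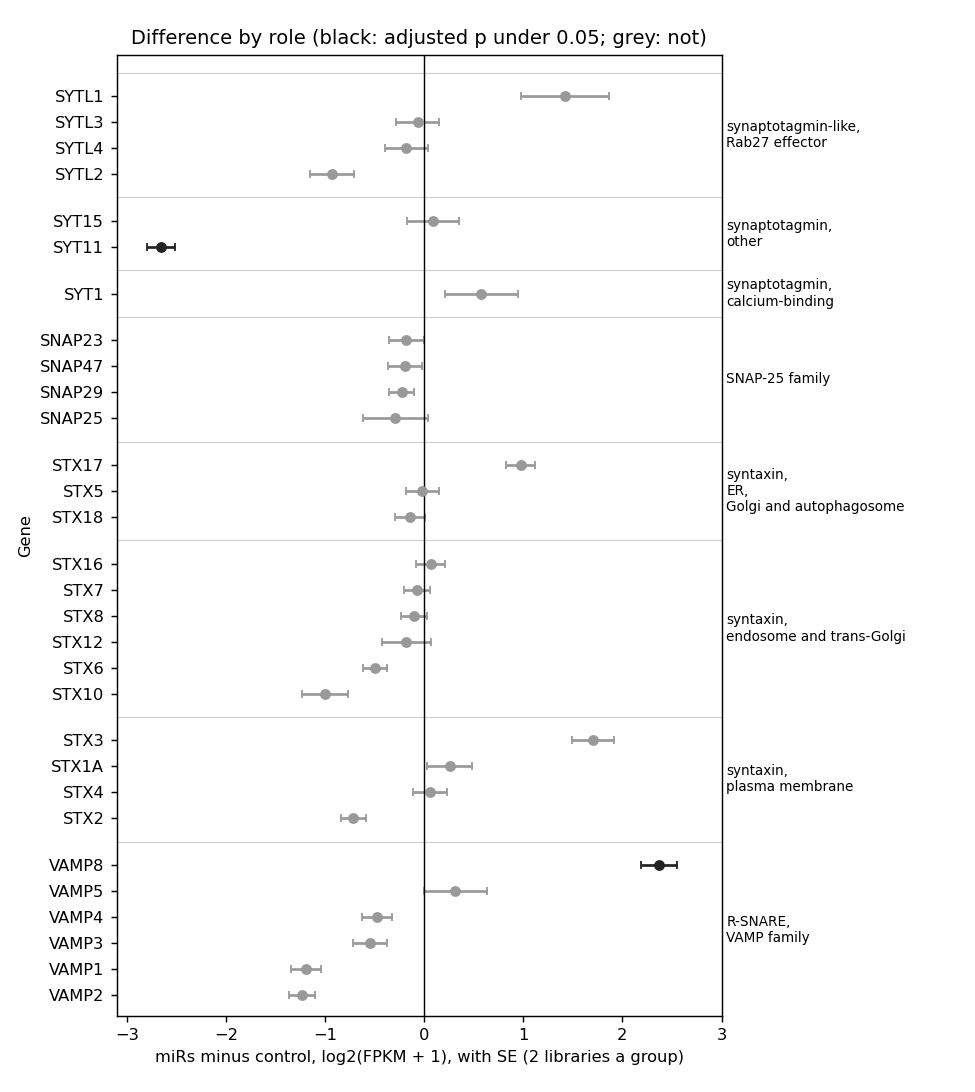
Difference between miRs and control on the log2(FPKM + 1) scale with its SE (x axis) for 30 of the 31 tested genes, grouped by role; black points passed an adjusted p of 0.05 in limma and grey points did not. VAMP8 (2.37) and SYT11 (−2.66) are the black points, and the VAMP, plasma membrane syntaxin and SYTL groups hold genes on both sides of 0.

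Syntaxins of the plasma membrane receive secretory vesicles. STX3, the syntaxin of the apical surface in epithelia and of granule release in blood cells, read 1.22 and 1.27 FPKM in the controls and 5.19 and 7.59 FPKM with miRs. All miRs values lay well above the controls, with a log2 difference of 1.702 ± 0.21 (SE), but the adjusted p in limma was 0.0651. STX4, the main plasma membrane syntaxin of non-neuronal cells, read 40.8 and 35.0 FPKM in the controls and 44.1 and 35.4 FPKM with miRs (log2 difference 0.06 ± 0.17). STX4 was thus the more abundant in every library, and the ratio of STX3 to STX4 was 0.0299 and 0.0361 in control and 0.118 and 0.215 in miRs.

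STX2, or epimorphin, read 18.7 and 17.5 FPKM in the controls and 11.03 and 10.3 FPKM with miRs (log2 difference −0.72 ± 0.13, adjusted p = 0.0863 in limma). Its groups were apart by more than 6 FPKM. STX1A, a syntaxin of neurons, was at 4.18 to 6.87 FPKM over the 4 libraries. STX11, of immune cells, did not reach the minimum, at 0.325 and 0.504 FPKM in the controls and 0.209 and 0.143 FPKM with miRs, and STX19 had a value above 0 in control replicate 1 alone (0.0861 FPKM).

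The syntaxins of endosomes and the trans-Golgi network were expressed at 8.79 FPKM or more in every library. STX10, which serves return of receptors from endosomes to the Golgi, read 35.0 and 33.2 FPKM in the controls and 13.3 and 20.6 FPKM with miRs. Its groups did not overlap, the miRs libraries differed from each other by over 7 FPKM, and the adjusted p was 0.107 in limma (log2 difference −1.001 ± 0.23). STX6, of the trans-Golgi network, was at 13.2 and 12.8 against 9.005 and 8.79 FPKM (−0.50, adjusted p = 0.115). STX7 and STX8, which act together in late endosome fusion, had log2 differences of −0.07 and −0.10. STX12 (−0.18) and STX16 (0.07) had groups that overlapped. STX16 has a readthrough transcript with NPEPL1, so its level is uncertain.

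STX17, which drives fusion of autophagosomes with lysosomes, read 2.78 and 3.24 FPKM in the controls and 7.03 and 6.69 FPKM with miRs. The libraries within each group were close, and the mean in miRs was 2.28-fold that in control (log2 difference 0.97 ± 0.15), with an adjusted p of 0.0731 in limma. Of its partners in this fusion, VAMP8 rose and SNAP29 read 11.997 and 11.96 FPKM in the controls and 10.3 and 9.84 FPKM with miRs (−0.23, adjusted p = 0.325). STX5 and STX18, of traffic between the endoplasmic reticulum and the Golgi, had log2 differences of −0.02 and −0.14, with overlapping groups.

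The SNAP-25 family supplies the remaining helices. SNAP23, its broadly expressed member, read 27.0 and 26.5 FPKM in the controls and 20.2 and 27.2 FPKM with miRs, so its groups overlapped. All 4 members had a lower mean log2 value in miRs, by −0.18 to −0.29, and the smallest adjusted p among them was 0.325 in limma. With 1 miRs library left out the sign turned for SNAP23 (0.0272 without replicate 1) and SNAP25 (0.0267 without replicate 2). SNAP25, the neuronal member, ranged from 0.774 to 2.31 FPKM, with the lowest value in miRs replicate 2 and the highest in control replicate 1.

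Synaptotagmins that bind calcium were nearly silent in these cells. Of 8 such genes only SYT1, the calcium sensor of synapses, reached the minimum, at 1.37 and 1.395 FPKM in the controls and 4.03 and 1.51 FPKM with miRs. Its higher mean in miRs rests on miRs replicate 1: without that library the log2 difference was 0.07, where it was 0.58 with all 4 (adjusted p = 0.391 in limma). SYT15 was at 1.89 to 3.46 FPKM with overlapping groups. It has a near-identical copy, so its level is uncertain. SYT4, the closest relative of SYT11, was listed at 0 in all 4 libraries, as were SYT6, SYT9, SYT10 and SYT13, and the remaining SYT genes stayed under 0.5 FPKM in every library.

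**Figure D3:**
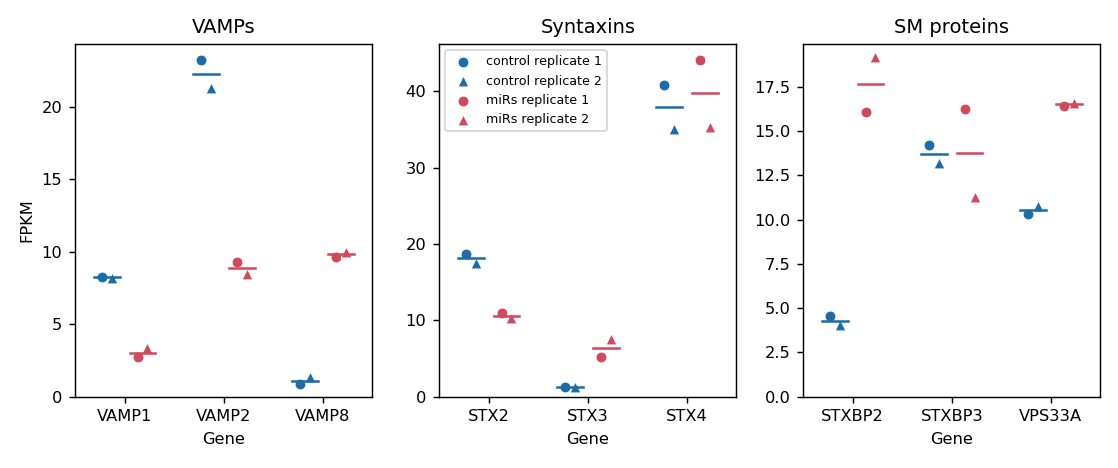
FPKM (linear axis from 0) of selected VAMPs, plasma membrane syntaxins and SM proteins; blue points are control libraries, red points miRs libraries, and each bar is the mean of 2. VAMP8, STX3, STXBP2 and VPS33A are higher in both miRs libraries, VAMP1, VAMP2 and STX2 are lower, and STX4 and STXBP3 overlap.

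The synaptotagmin-like proteins tether vesicles that carry Rab27. SYTL2 was the abundant one, at 26.4 and 27.2 FPKM in the controls and 16.7 and 10.9 FPKM with miRs. Its groups did not overlap, with a log2 difference of −0.93 ± 0.22 (SE) and an adjusted p of 0.111 in limma. SYTL1 was listed at 0 in control replicate 1, was at 0.0499 FPKM in control replicate 2, and was at 0.812 and 3.15 FPKM in miRs replicates 1 and 2. It reached the minimum, with a mean of 1.004 FPKM, only through its miRs values, which differ widely from each other (log2 difference 1.42 ± 0.44, adjusted p = 0.158). SYTL3 and SYTL4 were at 0.886 to 1.96 FPKM with overlapping groups, and SYTL5, under the minimum, read 0.219 and 0.0574 FPKM in the controls and 0.669 and 0.430 FPKM with miRs.

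In all, 18 genes did not reach the minimum. None of these 18 exceeded 0.669 FPKM in any library, and 6 were listed at 0 throughout (SYT4, SYT6, SYT9, SYT10, SYT13 and VAMP7). The lowest mean among the tested members was 1.004 FPKM and the highest among those not tested was 0.344 FPKM. STX11, STX19 and SYTL5 were named after their values were seen, as was STXBP3, an SM protein described below.

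Other genes of vesicle fusion were read from lists of 82 genes, of which 66 were tested. None passed in limma, and 13 had an unadjusted p under 0.05 (3 higher and 10 lower in miRs). Over all tested genes 1331 were higher and 1541 lower at that p. The median log2 difference of the 66 was −0.11. Among all tested genes 24.2% had an unadjusted p under 0.05, against 41.9% of the SNARE and synaptotagmin genes and 13 of these 66. The 41.9% includes VAMP8 and SYT11, known as called genes when the family was chosen, so it is a description. The SM proteins held the widest differences. STXBP2 (Munc18-2), the partner of STX3 and STX11 in epithelia and immune cells, read 4.56 and 4.04 FPKM in the controls and 16.1 and 19.2 FPKM with miRs. Its log2 difference was 1.81 ± 0.15 (SE), and its adjusted p of 0.0510 in limma missed the threshold. It passed in limma with a pseudocount of 0.1 (0.0441) and with median-of-ratios rescaling (0.0481). It did not pass with no minimum FPKM (0.118), with a minimum mean of 5 FPKM (0.0534), with quantile normalization (0.0617) or with no variance trend (0.0557). With 1 library left out the log2 difference of STXBP2 went from 1.69 to 1.93, and whether it passed depended on which library was left out. STXBP3 (Munc18-3), the partner of STX4, was at 14.2 and 13.2 against 16.3 and 11.3 FPKM, with overlapping groups. VPS33A, of the HOPS complex that tethers late endosomes and lysosomes, was at 10.3 and 10.8 against 16.4 and 16.6 FPKM (0.60, adjusted p = 0.0937).

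**Figure D4:**
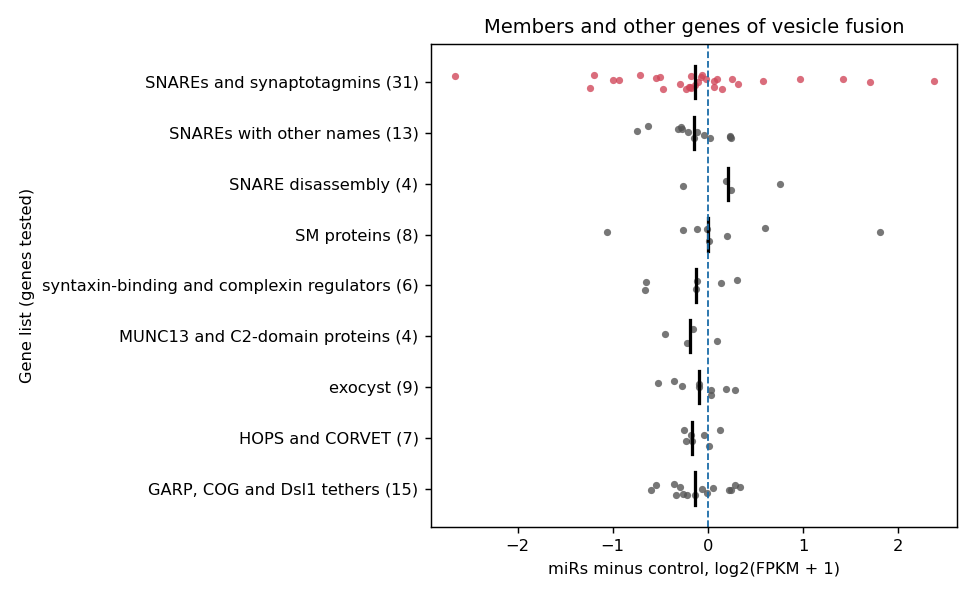
Difference between miRs and control on the log2(FPKM + 1) scale (x axis) for the tested SNAREs and synaptotagmins (red) and the tested genes of 8 other lists of vesicle fusion (grey); each point is a gene, black bars are list medians and the dashed line is the median of all tested genes (−0.002). The red points spread from −2.66 to 2.37, while outside the SM proteins the grey points lie between −0.75 and 0.76.

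Of the SNAREs with other names, 13 of 13 were tested and 6 had both miRs libraries below both controls (30.0% of all tested genes did) and 2 above (29.5%). SEC22B, of traffic between the endoplasmic reticulum and the Golgi, read 95.5 and 86.2 FPKM in the controls and 56.3 and 51.1 FPKM with miRs (log2 difference −0.75, adjusted p = 0.0863 in limma). BNIP1, a SNARE of retrograde traffic, was at 10.9 and 11.4 against 7.10 and 6.56 FPKM (−0.63, adjusted p = 0.0940). In the disassembly list, NAPA (alpha-SNAP), the main adaptor of NSF, was at 65.9 and 66.6 against 141 and 90.1 FPKM (0.76, adjusted p = 0.163), and NSF itself at 29.4 and 23.5 against 22.3 and 21.2 FPKM (−0.26, adjusted p = 0.365). TXLNA, which binds syntaxins, was at 42.2 and 46.5 against 27.4 and 28.1 FPKM. SNAPIN, which binds SNAP-25 proteins, was at 35.8 and 29.8 against 20.9 and 19.9 FPKM. Both genes lay below both controls in both miRs libraries, and neither passed.

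Tethering complexes act before SNAREs do, catching vesicles at a distance from the target membrane. In the exocyst, which tethers secretory vesicles, 9 of 9 subunits were tested, with a median log2 difference of −0.09. EXOC6, at 5.12 and 4.32 against 2.96 and 2.96 FPKM, had the smallest p (adjusted p = 0.145 in limma). In HOPS and CORVET 7 of 7 were tested (median −0.17), and among the GARP, COG and Dsl1 tethers of the Golgi 15 of 15 (median −0.14). COG5, at 13.5 and 12.9 against 8.05 and 9.49 FPKM (−0.54, adjusted p = 0.125), had the smallest p of the latter.

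Some markers of epithelium were higher in miRs, as were VAMP8, STX3 and STXBP2. All 6 of the 11 epithelial markers that reached the minimum lay above both controls in both miRs libraries (29.5% of all tested genes did). High miRs values help a low gene reach the minimum. Of these 6, 2 passed an adjusted p of 0.05 in limma, as did 0.245% of all tested genes. An unadjusted p under 0.05 in limma was seen in 5 of the 6 and in 24.2% of all tested genes. The summed FPKM of the 11 was 30.3 and 33.3 in control and 199 and 269 in miRs, most of it the keratin KRT18. Of the defining markers, ESRP1, GRHL2 and CLDN3 were listed at 0 in all 4 libraries, the cadherin CDH1 was listed at 0 in both miRs libraries, and EPCAM was at 1.07 and 1.61 FPKM in miRs. Of 10 fibroblast markers, all tested, 4 lay below both controls in both miRs libraries (DCN, LUM, THY1 and VIM). Of the rest, 1 lay above (S100A4) and 5 overlapped, where 30.0% of all tested genes lay below and 29.5% above. The median log2 difference of the 10 was −0.40. None of the 10 passed in limma, and 5 had an unadjusted p under 0.05, as had 24.2% of all tested genes. DCN, a matrix proteoglycan, read 963 and 1223 against 352 and 419 FPKM (log2 difference −1.50 ± 0.18, adjusted p = 0.0632). The summed FPKM of the 10 was 9969 and 10109 in control and 6736 and 11617 in miRs. Of 14 neuronal markers 1 reached the minimum and 5 were listed at 0 throughout, with a summed FPKM of 16.3 and 20.3 in control and 9.43 and 21.2 in miRs. The summed FPKM of 6 blood markers was at most 0.280 in any library. The part of epithelial and fibroblast transcripts in these results was not tested.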

How the data were processed

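Poly(A)-selected, stranded libraries were made from total RNA, per the labels' protocols. Per the file headers, the deposited values are FPKM, with 1 table for each library and 1 row for each symbol. Cuffdiff 2.2.1, TopHat2 2.1.1, SAMtools 0.1.18 and Bowtie2 2.2.8 are named, with build hg19, in the submitters' processing notes. Which annotation, strand setting and library scaling were used is not given in the sources used here, so overlapping genes may share fragments. The 4 tables were joined on symbol, and the treatment label gave the groups. Genes averaging 1 FPKM or more were tested with limma 3.58.1 (R 4.3.3) on log2(FPKM + 1), with a variance trend, 2-sided, with Benjamini-Hochberg adjustment over all of them. The test has 2 residual degrees of freedom. Differences on this scale understate changes of low genes. The naming rule was: full statistics for members past the threshold and for the 12 largest differences, and up to 4 genes with the smallest p per other list. The members, lists and seed families were chosen with earlier results of these data known. Alternatives were another pseudocount, filter, scaling or variance model, a replicate block and each library left out. Untranslated regions came from GENCODE 29 by symbol, the longest of at least 20 bases after the stop codon, for 91.1% of tested genes and 31 of 31 tested members. GRCh38 positions apply to those sequences only. Tables were handled in Python 3.11.15 with pandas 2.3.3. Values of some items are not reported here.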

Additional observations from a re-analysis of the deposited data

How the results depend on the processing

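Over all genes limma called 29 with all libraries, 12 higher and 17 lower. It called 0 with no minimum FPKM (3338 at an unadjusted p under 0.05), 6 with quantile normalization (2 higher, 4 lower) and from 0 to 3906 with 1 library left out. The lone library was then assumed to vary like the other group. The number of members called (2) was 0 with no minimum FPKM, 1 with a minimum mean of 5 FPKM or with quantile normalization (SYT11 in both), and from 0 to 14 with 1 library left out. The count of members above both controls (6) was 1 with a minimum mean of 5 FPKM, where 22 members were tested. It was from 8 to 11 with 1 library left out, which can only make the groups of any gene overlap less. The shares over all tested genes in these settings are not given here, so these counts are no result about the members. The members' median log2 difference went from −0.19 to −0.02 with 1 library left out. All 12 members with the largest differences kept their direction in every alternative that tested them. Their groups did not overlap, so leaving out 1 library could not turn the sign, and that outcome was fixed in advance. Among the other tested members and the named genes of other lists, the sign turned only with 1 library left out. The log2 differences then went from −0.0603 to 0.20 for STX16, −0.17 to 0.14 for STX5, −0.22 to 0.40 for SYT15, −0.0934 to 0.22 for STX4, −0.39 to 0.0272 for SNAP23, −0.0107 to 0.53 for STX1A, −0.13 to 0.77 for VAMP5, −0.61 to 0.0267 for SNAP25, −0.49 to 0.13 for STX12, −0.25 to 0.12 for SYTL3, −0.39 to 0.0366 for SYTL4, −0.32 to 0.00875 for ESYT1 and −0.0260 to 0.40 for NAPG. Alternatives for genes of other lists were chosen after seeing the data. The replicate numbers are shared by label only: the deviations of the libraries numbered 1 correlated at 0.201 across genes, and with the replicate number as a block 99 genes passed, with the same 2 members, SYT11 (adjusted p = 0.0443) and VAMP8 (0.0468), and STXBP2 passed (0.0468). The cause of these changes was not tested. Depth is unknown, and levels under 1 FPKM were read as listed.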
